A study of Mus musculus with 6 samples.

Results

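The genes described here make, bind or carry hyaluronan at the cell surface and in the matrix: the 3 hyaluronan synthases Has1, Has2 and Has3, the hyaluronan receptor Cd44, and the 4 lecticans Vcan (versican), Acan (aggrecan), Bcan (brevican) and Ncan (neurocan). They were found by matching the RefSeq accession in each probe set's own name to the mouse gene table, and all 8 had 1 probe set each, so 8 of the 1246 probe sets and 8 of the 909 named genes are concerned. The cells were MLE-15, mouse lung epithelium kept in culture by the SV40 large T antigen, and their RNA was measured on 3 arrays of cells given 10 nM PMA (phorbol 12-myristate 13-acetate, an activator of protein kinase C) for 24 h and on 3 arrays of untreated control cells of the same line. The dose and time come from the series' design text. The labels give each group the replicate numbers 1, 2 and 3 without saying what a number stands for or whether the replicates were separate cultures. P-values therefore measure the spread between these arrays, which may be technical. In both groups the sample titles write number 1 as MLE-15 without a letter, and numbers 2 and 3 as MLE15 with the letters A and B. What this naming means is not given. The study asked about glycan enzymes and mucins, and about their induction by PMA.

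Hyaluronan is a long unsulfated glycosaminoglycan that the Has enzymes extrude through the plasma membrane while building it from UDP-glucuronic acid and UDP-N-acetylglucosamine. Cd44 binds it on the cell surface, and the lecticans, large chondroitin sulfate proteoglycans, attach to it through their link domains. In lung, hyaluronan and versican belong to the provisional matrix of development and injury, aggrecan is the main proteoglycan of cartilage, and brevican and neurocan are known from brain.

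The upstream sequences of the 3 genes that carry the largest differences below are shown, as the 250 bases before the transcript start on the gene's own strand, from RefSeq on build GRCm38.p6. Acan lies on the plus strand at chr7:79052976-79053225, Vcan on the minus strand at chr13:89742513-89742762 and Cd44 on the minus strand at chr2:102901666-102901915. Capitals mark GC boxes (GGGCGG or its reverse complement CCGCCC, which overlap once in Acan) and CCAAT boxes (CCAAT or ATTGG).
Acan: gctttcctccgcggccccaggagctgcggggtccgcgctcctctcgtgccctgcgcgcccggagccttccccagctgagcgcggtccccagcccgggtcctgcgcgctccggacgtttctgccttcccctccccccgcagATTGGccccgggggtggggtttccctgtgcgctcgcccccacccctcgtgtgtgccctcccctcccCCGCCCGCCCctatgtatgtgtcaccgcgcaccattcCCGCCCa
Vcan: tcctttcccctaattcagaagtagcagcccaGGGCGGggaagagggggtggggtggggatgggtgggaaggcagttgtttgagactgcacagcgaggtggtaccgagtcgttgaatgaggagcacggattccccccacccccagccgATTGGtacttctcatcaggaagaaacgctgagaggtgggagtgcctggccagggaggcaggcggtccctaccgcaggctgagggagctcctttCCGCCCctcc
Cd44: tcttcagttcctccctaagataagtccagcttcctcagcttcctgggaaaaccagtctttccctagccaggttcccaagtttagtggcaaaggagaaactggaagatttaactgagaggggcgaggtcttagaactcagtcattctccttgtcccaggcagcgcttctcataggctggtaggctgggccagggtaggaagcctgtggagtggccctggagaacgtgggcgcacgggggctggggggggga
The Acan sequence held 3 GC boxes and 1 CCAAT box, the Vcan sequence held 2 and 1, and the Cd44 sequence held neither motif. Of all 32851 promoters in the table, 32.7% held a GC box and 33.8% a CCAAT box in the same window. The phorbol ester response element TGAGTCA, searched with its reverse complement TGACTCA, was in 0 of the 6 promoters found for the 8 genes and in 4.46% of all promoters. The cyclic AMP element TGACGTCA, which is its own reverse complement, was in the Has1 promoter and in 1.55% of all. These are matches of letters in one window and say nothing on binding.

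Levels are given as RMA values on the log2 scale, where 1 unit is a doubling of signal. Each belongs to its own probe set, so levels are not compared between genes. In bulk RNA, fewer cells making a transcript and less of it per cell cannot be told apart.

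Has1 gave the steadiest signal of the 3 synthases. It read 6.24, 6.28 and 6.18 on PMA arrays 1, 2 and 3, against 6.21, 6.18 and 6.22 on control arrays 1, 2 and 3, a span of 0.10 log2 units over all 6 arrays. The groups overlapped, and the difference of 0.032 (SE 0.057) did not pass the test. Has2, the synthase that embryonic heart development depends on in mouse, read 3.62, 3.41 and 3.52 on PMA arrays and 3.51, 3.51 and 3.59 on control arrays. Its values lay below the lower quartile of all probe sets on 6 of 6 arrays (quartiles of 4.32 to 4.43), and the table holds no background probes by which presence could be called. The Has2 difference was -0.019 (SE 0.075).

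Has3, known for making shorter hyaluronan chains than Has2, was the synthase with the widest span, 0.55 log2 units. It read 5.11, 5.29 and 5.06 on PMA arrays, against 4.74, 5.18 and 5.00 on control arrays. Control 1 was the lowest array, and the groups overlapped. All 3 numbers had the higher Has3 value with PMA, by 0.37, 0.10 and 0.066 log2 units, which was the case for 10.4% of all probe sets. Averaged, Has3 differed by 0.18 (SE 0.13; adjusted p = 0.999 by limma with Benjamini-Hochberg adjustment over all 1246 probe sets). Compared within numbers, with the number as a block, the SE was 0.079 and the 95% interval 0.0013 to 0.36, with an unadjusted p = 0.0487 and an adjusted p = 0.992 by limma, so Has3 did not pass.

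Cd44 had the largest PMA difference of the 8 genes. It read 9.64, 9.67 and 9.55 on PMA arrays, against 9.40, 9.17 and 9.60 on control arrays. The PMA arrays lay within 0.12 log2 units of each other, while control 2 was the lowest and control 3 stood between PMA 3 and PMA 1, so the groups overlapped. Cd44 averaged 9.62 ± 0.063 with PMA and 9.39 ± 0.22 in control cells (SD, n = 3 each), a difference of 0.23 (SE 0.12), the 9th highest of 1246 probe sets. Within numbers the differences were 0.24, 0.51 and -0.046. With control 2 left out and PMA 2 kept, the difference between the group means was 0.12. With the block the 95% interval was 0.0090 to 0.46, or 1.01-fold to 1.38-fold, with an unadjusted p = 0.0432 and an adjusted p = 0.992 by limma. Cd44 therefore did not pass either. The gene table lists 6 curated transcripts of Cd44, whose variable exons give many splice forms, and the probe set is named for 1 of them. Which forms its probes match is not given in the sources used here.

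Among the lecticans, Vcan read 6.01, 4.85 and 4.65 on PMA arrays, against 5.66, 4.54 and 4.72 on control arrays. The number 1 array was the highest in both groups, and the groups overlapped. Within numbers Vcan differed by 0.35, 0.31 and -0.070 log2 units between PMA and control cells. The mean difference of 0.20 had an SE of 0.47 without the block and of 0.090 with it, and the blocked 95% interval was -0.0087 to 0.40 (unadjusted p = 0.0584, adjusted p = 0.992 by limma).

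Acan read 6.44, 8.84 and 9.06 on PMA arrays, against 6.35, 8.98 and 9.00 on control arrays. Here the number 1 array was the lowest in both groups, and PMA and control arrays of one number lay close to each other. The Acan differences within numbers were 0.083, -0.13 and 0.062, with a mean of 0.0044. Its SE was 1.04 without the block and 0.071 with it, and the blocked interval was -0.16 to 0.17.

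The brain lecticans differed little between PMA and control arrays. Bcan read 5.90, 5.99 and 6.02 on PMA arrays, against 5.94, 5.99 and 5.93 on control arrays, a difference of 0.016 (SE 0.062). Ncan read 4.85, 4.72 and 4.68 on PMA arrays, against 4.88, 4.75 and 4.64 on control arrays, a difference of -0.0059 (SE 0.089). Both genes had overlapping groups and mixed signs within numbers.

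**Figure D1:**
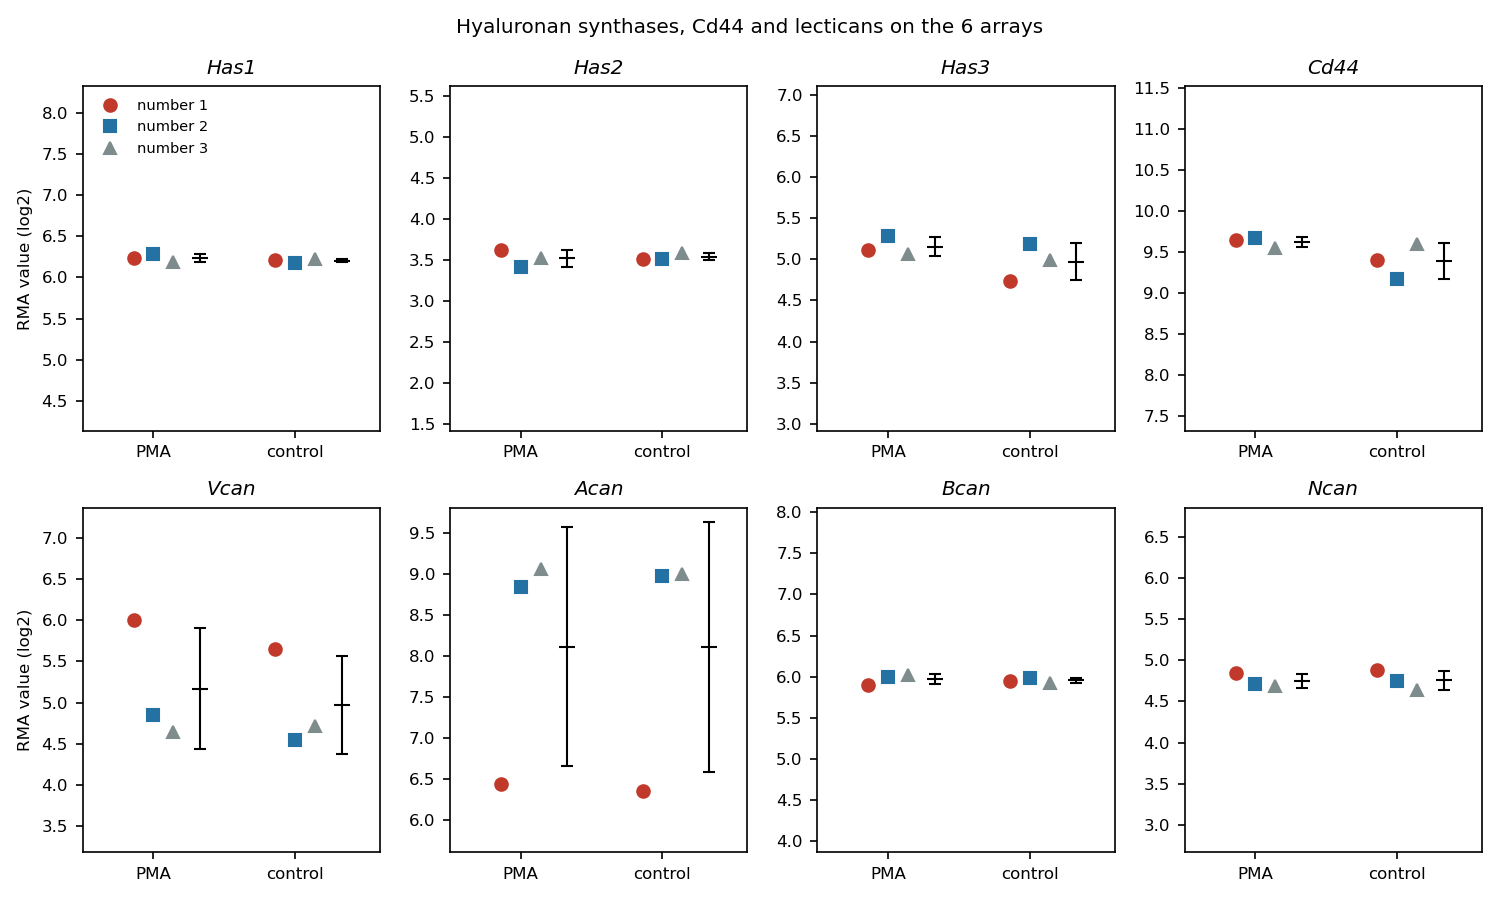
RMA values (log2) of the 8 genes on the 3 PMA arrays, left, and the 3 control arrays, right, in panels of equal height in log2 units; points are arrays, marked by replicate number, and the bars give mean ± SD (n = 3). Number 1 stands above the other arrays for Vcan and below them for Acan in both groups, while PMA and control arrays overlap in all 8 panels.

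Counted together, the PMA mean was above the control mean in 6 of the 8 genes and below it in 2, and the median difference was 0.024 log2 units, beside 651 higher, 595 lower and a median of 0.0033 over all 1246 probe sets. By limma 0 of the 8 passed, where 0% of all probe sets passed, and 0 of the 8 had an unadjusted p under 0.05 (0.321% of all). With the block 0 of the 8 passed (0% of all), and 2 had an unadjusted p under 0.05, Cd44 and Has3, beside 3.37% of all. In 0 of the 8 genes were PMA and control arrays free of overlap, which was so in 3.37% of all probe sets. The blocked 95% interval lay within 1 log2 unit of 0 for 8 of 8 genes, as it did for 1246 of 1246 probe sets. Without the block this held for 6 of 8 genes and 1104 of 1246 probe sets, the exceptions among the 8 being Vcan and Acan, whose number 1 arrays stood apart.

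**Figure D2:**
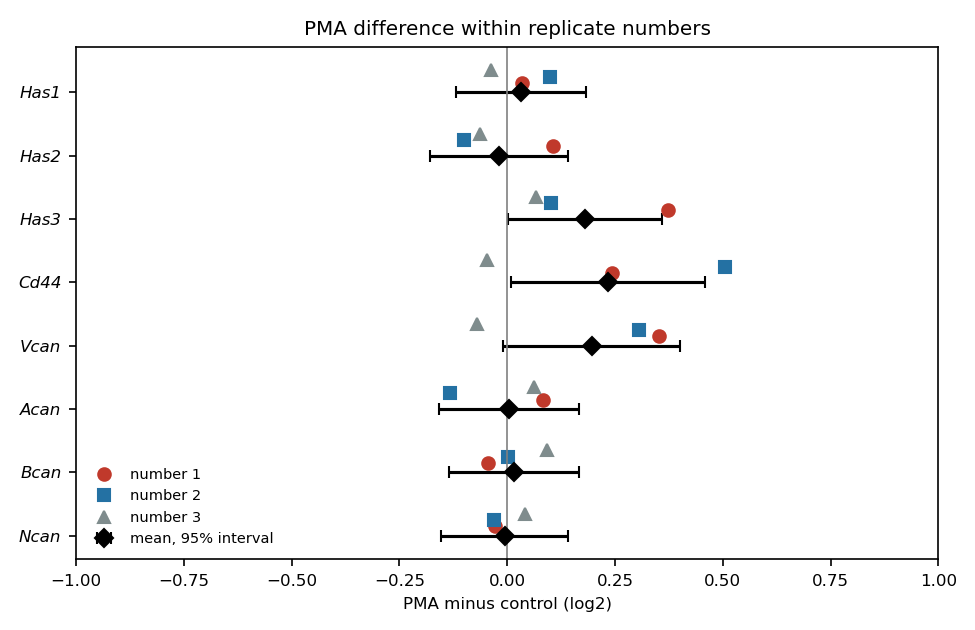
PMA minus control (log2) for the 8 genes: coloured points give the difference within each replicate number, and diamonds the mean with its 95% interval from limma with the number as a block. The intervals of Has3 and Cd44 start just above 0 and that of Vcan just below it, and number 3 is below 0 for Cd44 and Vcan.

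The comparison of number 1 with numbers 2 and 3, made with PMA as a term, set Acan and Vcan apart from the other 6 genes and in opposite directions. The PMA and control arrays of a number entered this fit as separate arrays, although deviations of arrays sharing a number were correlated. That correlation mostly reflects number 1. Number 1 is a single number, so p-values of this comparison, here and below, do not measure the spread between numbers. Acan averaged 6.40 on the 2 number 1 arrays and 8.97 on the 4 arrays of numbers 2 and 3. It was lower in number 1 by 5.95-fold, a difference of -2.57 log2 units (SE 0.079; adjusted p = 2.47e-09 by limma), the 14th lowest of 1246 probe sets. Within the 4 arrays of numbers 2 and 3 Acan spanned 0.22 log2 units. Vcan averaged 5.83 on the number 1 arrays and 4.69 on the others. It was higher in number 1 by 2.21-fold, a difference of 1.15 (SE 0.091; adjusted p = 2.37e-06 by limma), against a span of 0.31 within numbers 2 and 3.

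Both differences were seen in each group alone. Number 1 minus the mean of numbers 2 and 3 was -2.52 for Acan on PMA arrays and -2.63 on control arrays. For Vcan the same distance was 1.26 on PMA arrays and 1.03 on control arrays. The difference between the PMA difference in number 1 and that in numbers 2 and 3 was 0.12 (SE 0.16) for Acan and 0.24 (SE 0.17) for Vcan, and 0 of the 8 genes passed that test by limma (0.0803% of all probe sets).

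**Figure D3:**
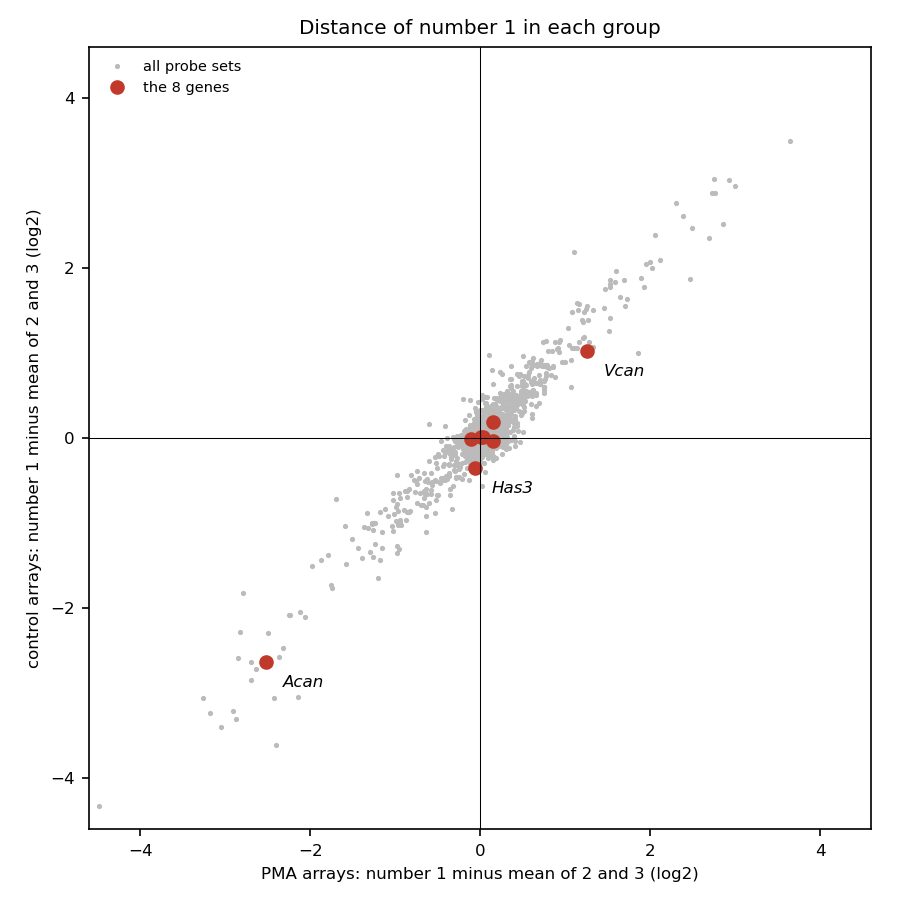
Distance of the number 1 array from the mean of numbers 2 and 3 (log2) on PMA arrays, horizontal, and on control arrays, vertical, for all 1246 probe sets (grey) and the 8 genes (red). Acan lies far down the diagonal at -2.52 and -2.63 and Vcan up it at 1.26 and 1.03, while the other 6 genes lie near the centre.

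Ncan, Has3, Bcan, Has2, Cd44 and Has1 did not pass in this comparison. Ncan averaged 4.87 in number 1 and 4.70 in the others, a difference of 0.17 (SE 0.068; adjusted p = 0.0745 by limma), and its number 1 arrays lay above the other 4. Has3 averaged 4.92 in number 1 and 5.13 in the others, a difference of -0.21 (SE 0.097; adjusted p = 0.116 by limma), with -0.063 on PMA arrays and -0.35 on control arrays. Cd44 averaged 9.52 in number 1 and 9.50 in numbers 2 and 3, a difference of 0.022 with a 95% interval of -0.22 to 0.26. For Has1, Has2 and Bcan the differences were 0.0089, 0.057 and -0.060.

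Of the 8 genes, 1 passed as higher in number 1, where 27.5% of all probe sets did, and 1 as lower, where 14.1% did. In either direction 2 of 8 passed, against 41.7% of all. The number 1 arrays did not overlap the rest for 3 of 8 genes (Acan, Vcan and Ncan), against 55.9% of all probe sets. The median absolute difference was 0.11 for the 8 genes and 0.17 for all probe sets. Of the 519 probe sets that passed, 343 were higher and 176 lower in number 1, and after another round of quantile normalization 278 were higher and 232 lower. For the 8 genes number 2 minus number 3 lay between -0.16 (Cd44) and 0.21 (Has3), 0 of 8 passed by limma (0% of all), and 0 had an unadjusted p under 0.05 (4.90% of all).

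Cell type markers varied with the number in both directions, and their part in the Acan and Vcan differences was not tested. Over all probe sets 27.5% passed as higher in number 1 and 14.1% as lower, beside which the few markers measured must be read. Of 12 listed lung epithelial markers 3 were measured, and 2 passed as higher in number 1, Sftpa1 at 0.52 and Muc1 at 0.33. The surfactant protein Sftpa1 lay below the lower quartile on 6 of 6 arrays, and Sftpd read 5.28 to 5.50, so the epithelial label could be checked on few genes. Of 11 fibroblast and mesenchyme markers 5 were measured, with 2 higher in number 1, the proteoglycan Cspg4 at 2.90 and the receptor Pdgfrb at 0.78, and 1 lower, the collagen-binding proteoglycan Dcn at -2.31, whose probe set carries the suffix s for several transcripts. The mean level of those 5 was 6.04 to 6.28 in number 1 and 5.71 to 6.02 in the others. Among 6 of 8 endothelial markers measured, 1 was higher and 3 lower, at a mean level of 5.58 to 5.60 in number 1 and 6.11 to 6.19 in the others. Among 5 of 11 leukocyte markers, 0 were higher and 1 lower, Mrc1 at -2.74, at 4.44 to 4.61 in number 1 and 4.98 to 5.05 in the others. Of 8 neural markers 0 were measured.

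Enzymes and transporters that supply the sugar donors of hyaluronan and of the lecticans' chains were measured for 11 of 11 listed genes. By limma 6 were lower in number 1 and 1 was higher, where 14.1% of all probe sets were lower and 27.5% higher. Gfpt2, an isoenzyme of the first committed step of hexosamine synthesis, averaged 6.38 in number 1 and 7.70 in the others, a difference of -1.32 (SE 0.077; adjusted p = 2.37e-07 by limma). Its partner Gfpt1 differed by -0.36 (adjusted p = 0.0175 by limma), and passed in 10 of 15 alternatives. Uap1, which makes UDP-N-acetylglucosamine, differed by -0.50 (SE 0.074).

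The donor transporters were lower in number 1 too. Slc35d1, which carries UDP-glucuronic acid and UDP-N-acetylgalactosamine into the endoplasmic reticulum, differed by -1.14 (SE 0.086), and Slc35d2, another nucleotide sugar transporter, by -0.87 (SE 0.10). Of the phosphoglucomutases, Pgm2 was lower in number 1, at -1.24 (SE 0.074), and Pgm1 higher, at 0.42 (SE 0.070). Ugdh, which oxidises UDP-glucose to UDP-glucuronic acid, stood at 10.45 in number 1 and 10.43 in the others, a difference of 0.018 (SE 0.084). Ugp2, Gnpnat1 and Pgm3 did not pass, at 0.21, 0.29 and 0.073, although Ugp2 passed in 4 of 15 alternatives and Gnpnat1 in 3 of 15.

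**Figure D4:**
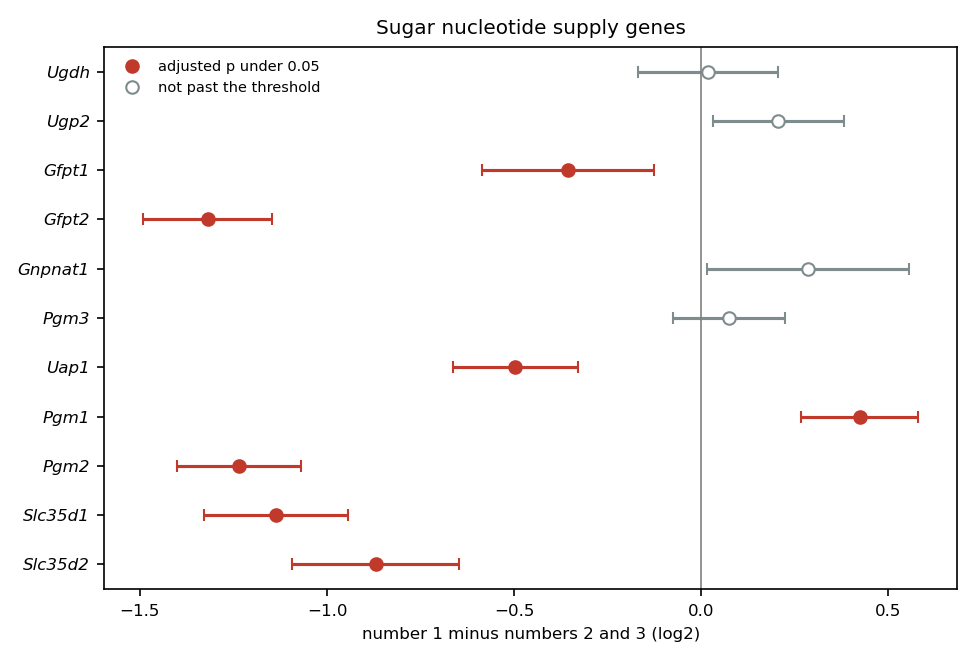
Number 1 minus numbers 2 and 3 (log2), with 95% intervals from limma with PMA as a term, for the 11 sugar nucleotide supply genes; filled red points passed an adjusted p of 0.05. Gfpt2, Pgm2 and Slc35d1 lie beyond -1, and Pgm1 is the filled point to the right of 0.

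Under PMA the 11 supply genes gave 4 higher and 7 lower means with a median difference of -0.013. Of them 0 passed by limma with or without the block, where 0% of all probe sets passed in either fit. In either fit 0 of the 11 had an unadjusted p under 0.05, beside 0.321% of all without the block and 3.37% with it. Of 9 hyaluronan-degrading enzymes Hyal1 and Hyal2 were measured. Hyal1, a lysosomal hyaluronidase, read 7.39, 7.60 and 6.90 on PMA arrays, against 7.35, 6.89 and 7.04 on control arrays, a difference of 0.20 (SE 0.22). Hyal2, the hyaluronidase anchored at the cell surface, differed by -0.036 (SE 0.059), and neither passed with PMA or with the number, although Hyal1 passed with the number in 3 of 15 alternatives. Of 10 lectican link proteins and partners, Ptprz1, a receptor phosphatase that is itself a chondroitin sulfate proteoglycan, was measured and differed by 0.11 (SE 0.071) with PMA, at values below the lower quartile on 6 of 6 arrays. Of 14 listed hyaluronan receptors and binding proteins other than Cd44, 7 lectican-cleaving proteases and 8 partners of Cd44, 0 had a probe set named here.

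The genes whose pattern was most like that of Acan were taken as those with the smallest root mean square difference, over the 6 arrays, between values each centred on its own mean, among 901 other named genes. They were Angptl4 at 0.097 log2 units, Igfbp3 at 0.113 and Fst at 0.149, against a median of 1.26 over all 901. Angptl4, a secreted inhibitor of lipoprotein lipase, read 6.60, 8.88 and 8.96 on PMA arrays, against 6.56, 9.02 and 9.05 on control arrays. Igfbp3, which binds insulin-like growth factors, and Fst (follistatin), which binds activins, were lower in number 1, at -2.47 for Igfbp3 and -2.39 for Fst. For Cd44 the nearest were Tgfbr1, a TGF-β receptor, at 0.084, and the sialyltransferases St3gal4 at 0.093 and St3gal6 at 0.118, against a median of 0.22. Tgfbr1 read 9.33, 9.47 and 9.23 on PMA arrays, against 9.26, 8.97 and 9.22 on control arrays, with control 2 again the lowest. The St3gal4 probe set also carries the suffix s.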

How the data were processed

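Each deposited value is a log2 signal that the authors computed with RMA, per the submitters' processing notes: background was corrected, arrays were quantile-normalized and probes summarised per probe set. The RMA version, array name and filters are not stated in the material used. Trizol-extracted RNA was labelled with biotin, per the labels' protocols. The median of an array was 5.64 to 5.71, and precision is limited by the 6 arrays. Of 1246 probe sets, 963 got a name through RefSeq accessions (mouse GRCm38.p6) and covered 909 genes. For genes with several probe sets the one of highest mean was used. The deposited values were fitted with limma 3.58.1 under R 4.3.3, using lmFit and eBayes over all probe sets, Benjamini-Hochberg adjustment and a threshold of 0.05, for PMA against control and for number 1 against numbers 2 and 3. SE is the moderated standard error. The unblocked PMA fit and the number 1 fit were run on simulated data with independent noise on each array. The simulation for PMA held no shift of number 1, and the blocked and interaction fits were not simulated.

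Deviations from the group mean, set against each other for arrays sharing a number, gave correlations of 0.956, 0.815 and 0.912 across probe sets, over the 0.1 set for pairing. A blocked fit on the number therefore stands beside the unblocked one; since number 1 lies far from the rest, the check mostly reflects number 1. The members, the lists, the rule for named genes and the number comparison were chosen with earlier results of these data known. Named are all 8 members, related genes that passed or led their list, markers, and the 3 nearest genes of Cd44 and Acan. The other members of the measured related lists were added to complete them. Alternatives were the block, a term for number 1, arrays or numbers left out, other scaling, an intensity trend, a filter on dim probe sets and averaged probe sets. Human cells named in the design text were not analysed here.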

Additional observations from a re-analysis of the deposited data

How the results depend on the processing

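With PMA, 0 genes of the 8 and 0 probe sets passed in each of 14 alternatives, the replicate block among them. With dim probe sets left out, 7 genes and 934 probe sets were tested, Has2 being dim. The block was not used in the number 1 and interaction fits. Over single arrays left out, which unbalances the numbers, the PMA difference ran from -0.069 to 0.034 for Has2, -0.22 to 0.54 for Vcan, -0.87 to 0.84 for Acan, -0.0088 to 0.052 for Bcan and -0.063 to 0.056 for Ncan. That of Cd44 ran from 0.12 to 0.34, of Has3 from 0.063 to 0.29 and of Has1 from 0.0095 to 0.059. With number 1 left out of both groups it was -0.035 for Acan and 0.0057 for Ncan. Acan stood at -0.0079 with arrays centred on their medians and at -0.017 after another quantile normalization. Acan and Vcan kept their direction and their call between number 1 and the other numbers in each of 16 alternatives, from -2.63 to -2.51 and from 1.03 to 1.26. Has1, Has2 and Cd44 had small differences there that changed sign. Over single arrays left out these ran from -0.012 to 0.030 for Has1, -0.036 to 0.15 for Has2 and -0.069 to 0.12 for Cd44. On control arrays alone Has2 was at -0.036. Centring gave -0.031 for Has1 and -0.017 for Cd44, quantile normalization -0.012 for Has1, -0.017 for Has2 and -0.19 for Cd44, number 3 left out -0.0061 for Has1, and number 2 left out -0.055 for Cd44. Has3 passed in 4 of 16 alternatives, 1 of which was control arrays alone. With 1 group alone, number 1 is a single array, assumed to vary like the other 2, so these fits are weak tests for each gene. Of the supply genes called with the number, Gfpt1 passed in 10 of 15 alternatives and the other 6 in 15 of 15. The 1 probe set whose PMA difference depended on the number, which has no gene name here, became 0 after quantile normalization (80 at an unadjusted p under 0.05 by limma) and 0 with an intensity trend (105). Leaving out number 2 or 3, the count over all probe sets after averaging by gene, the comparison of number 2 with number 3 and the alternatives of the last result were chosen after seeing the data. The causes were not tested. Signal over background is unknown, so dim probe sets such as that of Has2 may hide changes.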
